A study of Homo sapiens with 68 samples.

Results

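PKM (ENSG00000067225) encodes the pyruvate kinase of most tissues, the enzyme of the last step of glycolysis. The peaks described here are all those whose name carried that identifier, 2161 of 15800601 listed peaks. They came from TLC-CLIP, in which ultraviolet light links proteins to the RNA they touch, RNase trims that RNA, an antibody pulls down the chosen protein, and the attached fragments are sequenced. The cells were HEK293T, a human embryonic kidney line, and 61 of the 68 libraries listed at least 1 PKM peak.

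The PKM transcript is a textbook case of exclusive exons. An mRNA contains either the exon of the PKM1 form, found mainly in adult muscle and brain, or the exon of the PKM2 form, found in embryonic, proliferating and tumour cells. hnRNPI, also called PTBP1, binds pyrimidine-rich RNA, and hnRNPA1 binds RNA with UAG-like motifs. Both are known to hold back the PKM1 exon, so that the PKM2 exon is used. Of the other proteins profiled, hnRNPc (hnRNP C) binds runs of uridine in introns, and RBFOX2 (antibody RBM9) binds GCAUG motifs and regulates alternative exons.

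The 34 groups had 2 libraries each and differed in the protein, the number of cells, the RNase, the gel step and the crosslinking. For each of the 4 proteins there were groups of 50000 crosslinked cells at 0.005 U of RNase in 3 protocols. These were gel purification of the protein-RNA complexes (titled lowRNase, called here with PAGE), no gel (noPAGE), and no gel with a RecJ exonuclease step against leftover adapter (noPAGE_RecJ). These 24 libraries are the main set. Each protein also had a noUV and a noUV_noPAGE group without crosslinking, 16 libraries in all, known as such by their titles and the series description. Of a further 20 crosslinked libraries, some used medium RNase, 0.025 U (hnRNPA1, hnRNPc). Others used fewer cells together with less RNase (hnRNPc, RBFOX2), 10k cells at 0.001 U or 1k cells at 0.0001 U. The rest came from hnRNPc groups with lower cell numbers in the title (hnRNPc_5k_noPAGE, hnRNPc_500_noPAGE and both with RecJ). These were all labelled with 50000 cells and 0.005 U. The last 8 libraries came from other gel regions of hnRNPc immunoprecipitations (10000 cells, 0.001 U), and 7 of them listed no PKM peak. Replicates were not said to be separate cultures, so p-values measure the spread between these libraries, which may be technical.

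Lists of the main set ranged from 3268 peaks to 523402 peaks. How many reads lie behind a list is not given, so depth is unknown. Lists without crosslinking held 18690 to 299616 peaks. They were shorter than the crosslinked lists of the same protein and gel step, except for hnRNPc with PAGE. There they held 299616 and 299307 peaks, more than either crosslinked list. The library hnRNPc_50k_lowRNase replicate 1 stood apart, with 3268 listed peaks against 214849 in replicate 2, and contributed 2 PKM peaks. Where leaving it out moved the difference in a test by over 1.5 times, or its p-value across the threshold, both values are given. Other values that include it may be given only once.

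All PKM peaks lay on 1 strand of chromosome 15 (hg19), the minus strand, between 72491404 and 72523548, a span of 32145 nt. No peak of another gene shared a nucleotide with this span. No 2 libraries had identical PKM peaks.

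No exon annotation of hg19 was used here, so landmarks were taken from the libraries without crosslinking. A segment was a stretch covered by PKM peaks in at least 6 of these 16 libraries. There were 14 segments in 11 groups, as many groups as a PKM mRNA has exons, and they made up 5.43% of the span. Segment 1 (chr15:72523457-72523542) lay at the 5′ end, and segments 11 to 14 fell within 1 group at the 3′ end, where the last exon is. Counted from that end, segment 9 (chr15:72494807-72494958) held the place of the PKM2 exon. Peak edges of 12 libraries stacked between 72494956 and 72494962, at its 5′ edge. This segment carried a peak in 13 of the 16 libraries without crosslinking.

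The next upstream segment, segment 8, was chr15:72499080-72499202. The 4121 nt between them (chr15:72494959-72499079), 12.8% of the span, are called the interval below. By the known order of the exons this interval holds the PKM1 exon, near its 3′ end, and the introns on both sides of that exon. No segment marked the PKM1 exon itself. The identity of each exon rests on this order and on general knowledge of the gene, not on coordinates read from an annotation.

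**Figure D1:**
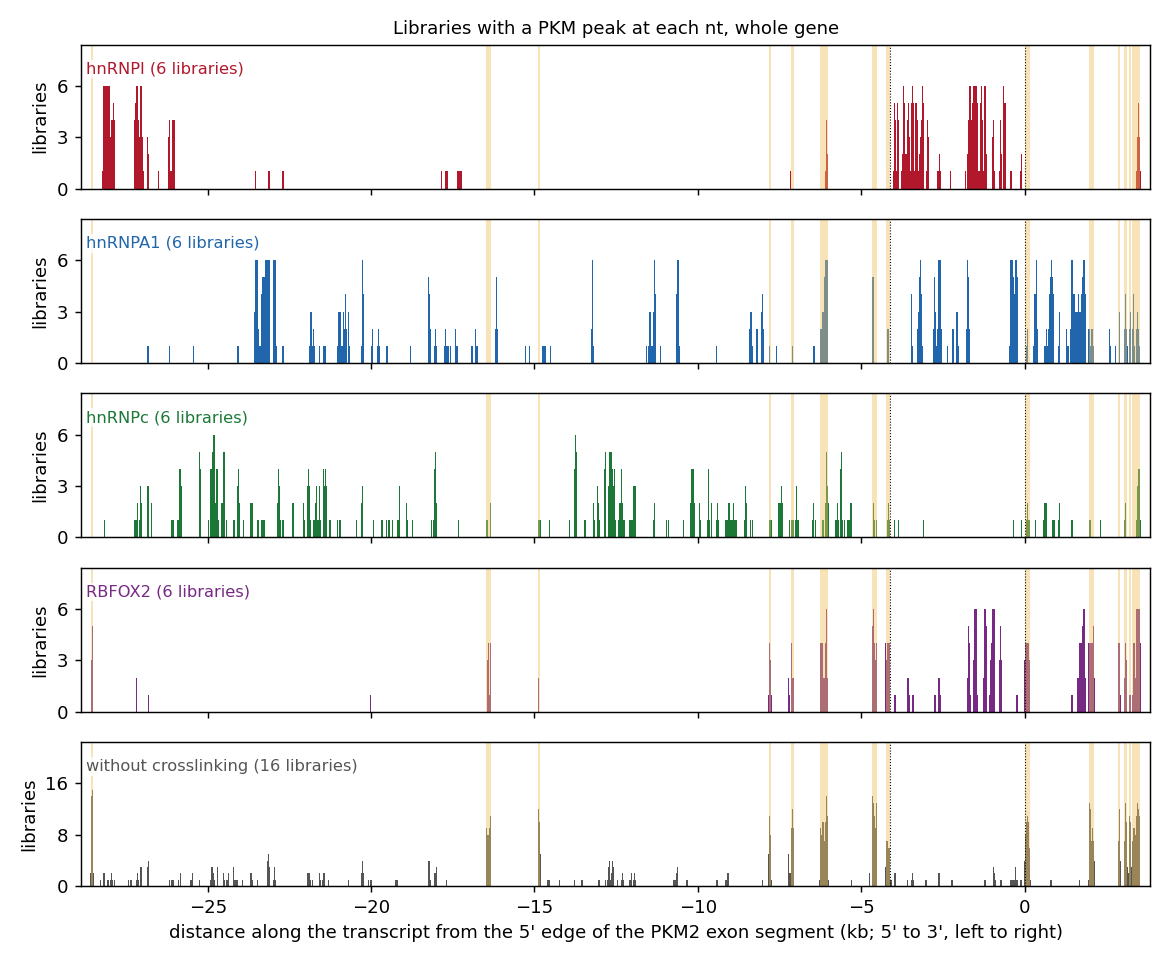
Number of libraries (y axis) with a PKM peak at each position, for the 6 libraries of each protein in the main set and the 16 libraries without crosslinking. The x axis is the distance in kb from the 5′ edge of the PKM2 exon segment, 5′ to 3′ from left to right. Shading marks the 14 segments and dotted lines bound the interval. hnRNPI peaks gathered in the interval and near the 5′ end and hnRNPc peaks in the upstream introns. Positions shared by many libraries without crosslinking lie on the segments, which were defined from them.

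PKM was not among the genes that set one protein apart by number of peaks. hnRNPI listed 22 to 38 PKM peaks per library (median 24.5), hnRNPA1 39 to 59 (median 45.5) and RBFOX2 19 to 38 (median 35.5). hnRNPc listed 2 in its shortest list and 39 to 60 in the other 5 libraries. Relative to list length, the rate was 8.43 ± 2.69 PKM peaks per 100000 listed peaks for hnRNPI (SD, n = 6) and 9.44 ± 1.34 for hnRNPA1 (SD, n = 6). It was 18.2 ± 7.17 for RBFOX2 (SD, n = 6) and 21.6 ± 19.6 for hnRNPc (SD, n = 6), or 13.6 ± 2.63 without its shortest list (SD, n = 5).

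Each protein was compared with the other 3 within each protocol, by an exact two-sided permutation test over libraries, with p-values adjusted over 12 tests. The hnRNPI rate differed from the others by -7.97 per 100000 (exact permutation p = 0.138, adjusted p = 0.207). For hnRNPA1 the difference was -6.62 (exact permutation p = 0.238, adjusted p = 0.318). For hnRNPc it was 9.53 (exact permutation p = 0.0775, adjusted p = 0.155), and for RBFOX2 5.06 (exact permutation p = 0.379, adjusted p = 0.440). None passed the threshold of 0.05, and over the 3 protocols together the libraries of every protein overlapped those of the others. Within protocols, hnRNPI lay below every other library without PAGE (6.22 and 7.02 against at least 8.41) and with RecJ (7.30 and 6.57 against at least 7.91), but not with PAGE. Over 12236 genes, all libraries of the named protein lay below all others in 2.24% for hnRNPI and 0.229% for hnRNPA1, and above all others in 1.14% for hnRNPc and 18.8% for RBFOX2. PKM was in none of these sets. Without the shortest hnRNPc list, the hnRNPc difference was 2.36 (exact permutation p = 0.425) and the hnRNPA1 difference -3.88 (exact permutation p = 0.162). The RBFOX2 difference was then 7.75 (exact permutation p = 0.00352) and the hnRNPI difference -5.21 (exact permutation p = 0.0433), all unadjusted. In the protocols that do not hold this list, hnRNPc differed from the others by 0.14 without PAGE and -0.72 with RecJ. Without that list, hnRNPI lay below all others in 10.1% of genes and RBFOX2 above in 20.4%, again not including PKM.

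The RBFOX2 rate depended on the protocol. With PAGE its libraries had 8.83 and 9.12 PKM peaks per 100000, the lowest pair of the 4 proteins. Without PAGE they had 22.9 in both replicates, and with RecJ 21.7 and 23.7, above every library of the other proteins in the same protocol. The change with protocol was not tested.

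**Figure D2:**
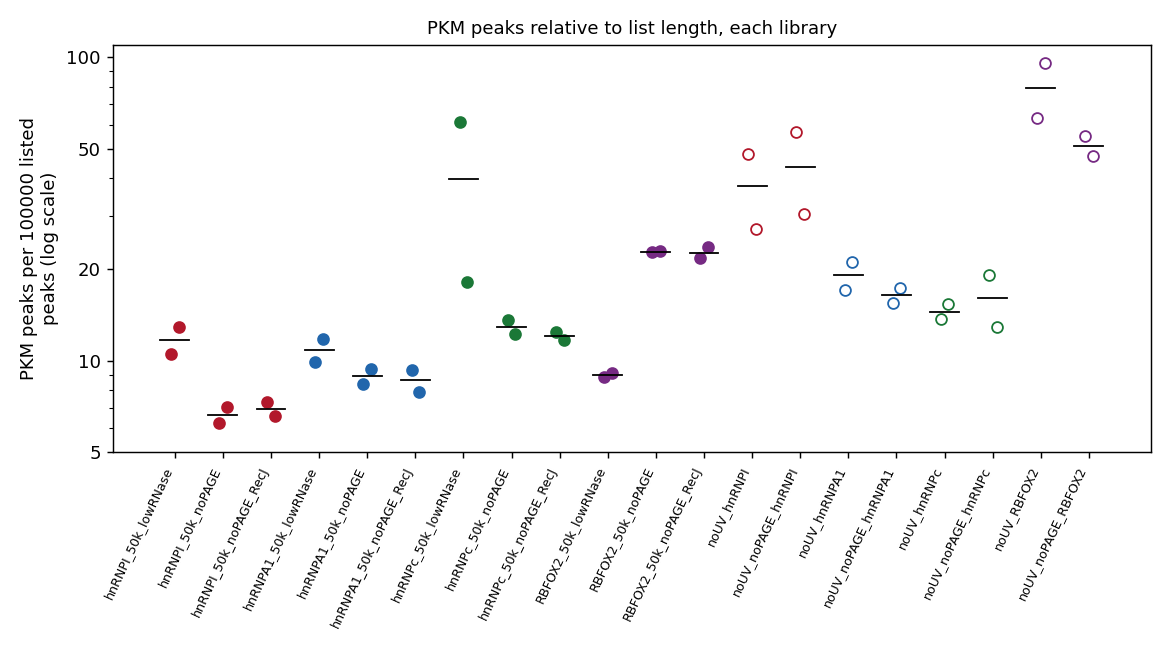
PKM peaks per 100000 listed peaks (y axis, log scale) in each library, by group. Filled points are the crosslinked main set, hollow points the libraries without crosslinking, and bars the means of 2. The hnRNPc point at 61.2 is the library with 3268 listed peaks. The RBFOX2 libraries without crosslinking reach 96.0.

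What differed between the proteins was where on PKM their peaks lay. For hnRNPI, 59.1 ± 7.48% of the nucleotides under PKM peaks were in the interval around the PKM1 exon (SD, n = 6), although the interval is 12.8% of the span. Its libraries with PAGE had 55.9% and 46.0%. Those without PAGE had 60.1% and 60.7%, and those with RecJ 65.8% and 66.1%. Against the other 3 proteins the difference was 40.7 percentage points (exact permutation p = 0.000137, adjusted p = 0.00164), in the same direction in 3 of 3 protocols. The hnRNPI libraries lay above those of hnRNPA1 and hnRNPc in every protocol, and the only overlap with another protein was with RBFOX2 with PAGE.

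For hnRNPA1 the share was even across protocols, at 21.3 ± 1.74% (SD, n = 6) with a range of 19.3% to 24.2%. Its difference from the other 3 proteins, -9.62 points, did not pass the test (exact permutation p = 0.403, adjusted p = 0.440). That mean of the others combines the high share of hnRNPI and the low one of hnRNPc.

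hnRNPc peaks were nearly absent from the interval, with a share of 0.885 ± 1.33% (SD, n = 6) and no library above 2.91%. The difference from the others was -36.9 points (exact permutation p = 0.000319, adjusted p = 0.00191), and no hnRNPc library overlapped a library of another protein. Without its shortest list the hnRNPc share was 1.06 ± 1.41% (SD, n = 5).

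For RBFOX2 the share was 50.3% and 49.6% with PAGE, where it lay among the hnRNPI values. It was 27.6% and 24.1% without PAGE, and 21.2% and 24.7% with RecJ. RBFOX2 peaks covered 635 and 554 nt of the interval with PAGE, 607 and 539 without PAGE, and 457 and 549 with RecJ. Over all of PKM they covered 1262 and 1118 nt with PAGE, 2198 and 2238 without PAGE, and 2158 and 2226 with RecJ. The difference in share from the others over all protocols was 5.79 points (exact permutation p = 0.615, adjusted p = 0.615). Within protocols it was 26.1 points with PAGE, -1.33 without PAGE and -7.35 with RecJ. The interval and these tests were set with the data in view, and the crosslinked libraries played no part in placing the interval.

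**Figure D3:**
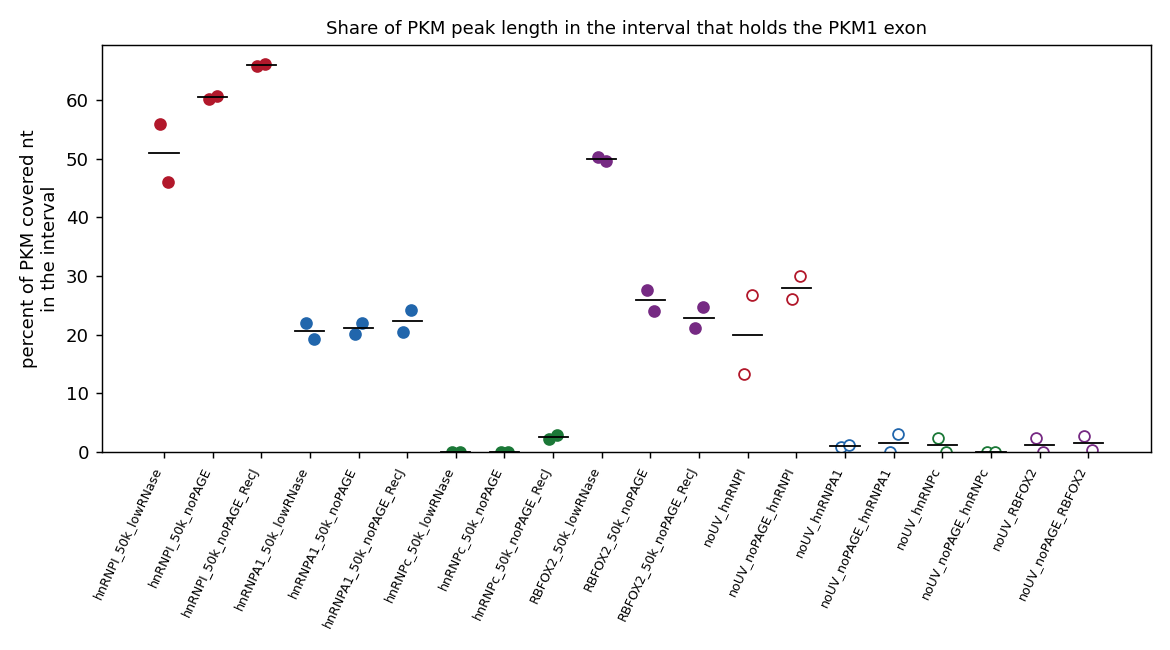
Percent of the nucleotides under PKM peaks that lay in the interval holding the PKM1 exon (y axis), in each library by group. Filled points are crosslinked, hollow points not crosslinked, and bars are means of 2. Among the filled points, the hnRNPI libraries sit between 46.0% and 66.1%, hnRNPA1 between 19.3% and 24.2%, and hnRNPc at or below 2.91%.

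Sites were defined by joining the peaks of a protein that lay less than 30 nt apart, over its 6 libraries of the main set. A site was recurrent if every library listed a peak in it, the shortest hnRNPc list excepted. The strength of a site in a library is the highest number carried in the names of its peaks, taken as its count of reads. These read numbers are unscaled and are compared only between sites of the same protein.

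hnRNPI had 30 sites on PKM, of which 7 were recurrent and 16 were seen in 1 library. The recurrent sites fell in 2 places, 4 in the interval and 3 near the 5′ end of the transcript. None touched a segment. The strongest was site 1 (chr15:72522782-72523180), whose 5′ edge lay 362 nt downstream from the start of segment 1, in the place of the first intron. Its read numbers were 120 and 92 with PAGE, 218 and 190 without PAGE, and 115 and 198 with RecJ. Site 2 (chr15:72521924-72522230) had 46 to 83 reads (median 62.5) and site 3 (chr15:72520947-72521170) had 16 to 56 (median 29.0). Site 1 stood above sites 2 and 3 in every library. At site 2, 5 of the 6 hnRNPc and 2 of the 6 RBFOX2 libraries of the main set also listed a peak. So did 4 of the 16 libraries without crosslinking. At site 1, a peak was also listed in 2 of the 6 hnRNPc libraries of the main set. Without crosslinking, 4 of the 16 libraries listed one at site 1, of which 1 was an hnRNPI library, with 7 reads.

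In the interval, the strongest hnRNPI site was site 6 (chr15:72496112-72496714), 603 nt long. It had 71 and 68 reads with PAGE, 126 and 113 without PAGE, and 113 and 129 with RecJ. Its rank among all listed peaks of a library ran from 98.0% to 98.8%. Further upstream lay site 4 (chr15:72498801-72498993), ending 86 nt from segment 8, with 26 to 71 reads (median 37.0). Site 5 (chr15:72498034-72498726), the longest at 693 nt, had 37 to 84 reads (median 44.0).

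The hnRNPI site nearest to the PKM2 exon was site 7 (chr15:72495518-72495731), 559 nt upstream of its segment. It had 19 and 16 reads with PAGE, 50 and 45 without PAGE, and 56 and 48 with RecJ. The libraries with PAGE were lowest, and at 80.8% and 80.4% of listed peaks their ranks were also below the 89.4% to 92.8% of the libraries without PAGE. RBFOX2 also had a peak at hnRNPI site 7, in 5 of its 6 libraries of the main set. Downstream of the PKM2 exon segment, hnRNPI had no recurrent site. At segment 14, at the 3′ end, 5 of its 6 libraries of the main set listed a peak. That segment also carried a peak in 15 of the 16 libraries without crosslinking.

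hnRNPA1 had 73 sites on PKM, with 14 recurrent and 25 seen in 1 library. They were spread over the gene, with 4 in the interval, 3 between the PKM2 exon segment and the next segment downstream, and the others upstream. In the interval the strongest was site 11 (chr15:72495145-72495428), 186 nt upstream of the PKM2 exon segment. It had 71 and 78 reads with PAGE, 61 and 83 without PAGE, and 83 and 123 with RecJ. In every library it ranked above at least 97.3% of listed peaks. Both medium RNase libraries of hnRNPA1 also listed it, with 58 and 49 reads. Without crosslinking it was listed in 2 of the 4 hnRNPA1 libraries, with 14 and 17 reads, and in 4 of all 16, the highest being 44 reads in noUV_noPAGE_hnRNPI replicate 2.

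hnRNPA1 site 11 and hnRNPI site 7 were separated by 89 nt. From general knowledge of the gene, not from a file, the PKM1 exon lies at this place: hnRNPI site 7 meets its upstream side, and hnRNPA1 site 11 covers its downstream part and the intron behind it.

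The other hnRNPA1 sites of the interval lay upstream. Site 9 (chr15:72497483-72497769) had 38 to 82 reads (median 60.5). Site 8 (chr15:72498072-72498251) had 31 to 63 reads (median 43.0) and lay wholly inside hnRNPI site 5. Site 10 (chr15:72496624-72496741) had 31 to 56 reads (median 43.0) and shared 91 nt with hnRNPI site 6. Of the 4 hnRNPA1 sites in the interval, sites 8 and 10 therefore overlapped a recurrent hnRNPI site, and sites 9 and 11 did not. hnRNPI still listed a peak at site 9 in 3 and at site 11 in 2 of its 6 libraries of the main set. RBFOX2 listed a peak at each of sites 9 and 11 in 2 of its 6. All 4 hnRNPA1 sites were listed in both medium RNase libraries.

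Downstream of the PKM2 exon segment, hnRNPA1 site 12 (chr15:72494544-72494684) had a median of 50.5 reads and site 13 (chr15:72494049-72494366) a median of 54.5. Site 14 (chr15:72493079-72493560), just upstream of segment 10, had 67 and 61 reads with PAGE, 96 and 98 without PAGE, and 90 and 54 with RecJ. hnRNPA1 peaks thus recurred on both sides of the PKM2 exon segment. hnRNPI peaks recurred upstream, and no downstream place had a peak in all 6 libraries of the main set, segment 14 having one in 5.

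Away from the exclusive exons, hnRNPA1 site 1 (chr15:72518047-72518538) had 50 to 111 reads (median 76.5) and its neighbour, site 2 (chr15:72517850-72517975), 52 to 72 (median 59.5). The highest read numbers of hnRNPA1 were at site 7 (chr15:72500962-72501226), with 101 to 228 reads (median 188). This site lay on segment 6 and carried a peak in 15 of the 16 libraries without crosslinking. In the 4 hnRNPA1 libraries among these, the read numbers were 303, 280, 314 and 398, above the crosslinked hnRNPA1 libraries of the main set and from shorter lists.

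The other hnRNPA1 sites varied in how often they appeared without crosslinking. Sites 1 and 3 had a peak in 4 of the 4 hnRNPA1 libraries without crosslinking, site 2 in 3 and site 11 in 2. At site 1 the read numbers there were 24, 18, 23 and 25, below the 50 to 111 of the main set. Sites 4, 8 and 12 had a peak in 0 of all 16 libraries without crosslinking, and sites 5, 10, 13 and 14 in 1.

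**Figure D4:**
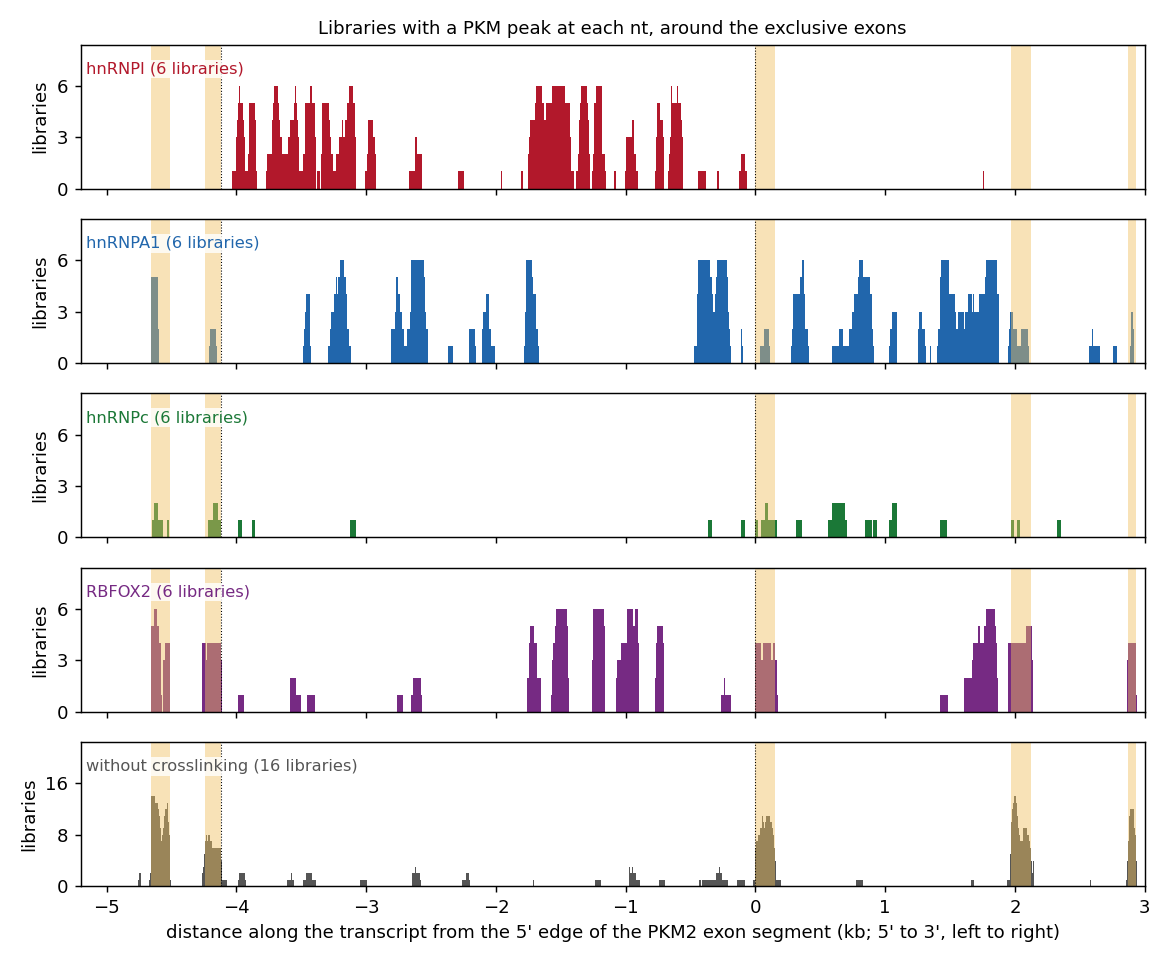
Number of libraries (y axis) with a PKM peak at each position around the exclusive exons. The x axis is the distance in kb from the 5′ edge of the PKM2 exon segment at 0, 5′ to 3′ from left to right. Shading marks segments and dotted lines bound the 4121 nt interval. In this window hnRNPI peaks recur upstream of the PKM2 exon segment, and hnRNPA1 and RBFOX2 peaks on both sides. The positions shared by most of the 16 libraries without crosslinking are the segments defined from them.

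RBFOX2 had 31 sites, of which 7 were recurrent. Of these, 3 lay in the interval, 3 touched segments and site 6 lay downstream of the PKM2 exon segment. Of those on segments, site 1 (chr15:72500962-72501232) had 34 to 136 reads (median 109) and site 7 (chr15:72491404-72491661) 64 to 144 (median 134.5). Sites 1 and 7 each had a peak in 15 of the 16 libraries without crosslinking. Sites 3 (chr15:72496398-72496530) and 4 (chr15:72496117-72496219) both lay wholly within hnRNPI site 6. At site 4 the read numbers were 400 and 387 with PAGE, 162 and 197 without PAGE, and 149 and 179 with RecJ. At site 3 they were 311 and 283 with PAGE, 152 and 133 without PAGE, and 138 and 152 with RecJ. Both sites were higher with PAGE than in any library without it, although the read numbers are not scaled for depth. All 4 RBFOX2 libraries of 10k and 1k cells listed both sites. At site 4 they gave 277 and 238 reads from 10k cells, and 40 and 55 from 1k cells.

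RBFOX2 site 5 (chr15:72495853-72496032) had 59 to 192 reads (median 150.5) and lay between hnRNPI sites 6 and 7, 79 nt from one and 121 nt from the other. RBFOX2 site 6 (chr15:72493089-72493351), with 85 to 238 reads (median 131.5), lay wholly within hnRNPA1 site 14. Neither hnRNPc nor hnRNPA1 listed a peak at RBFOX2 sites 3, 4 or 5 in the main set. The RBFOX2 libraries of fewer cells, made with less RNase, had shares in the interval of 44.6% and 54.4% from 10k cells, and 43.1% and 44.6% from 1k cells. These lay near the 50.3% and 49.6% with PAGE and above all 4 values without it.

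**Figure D5:**
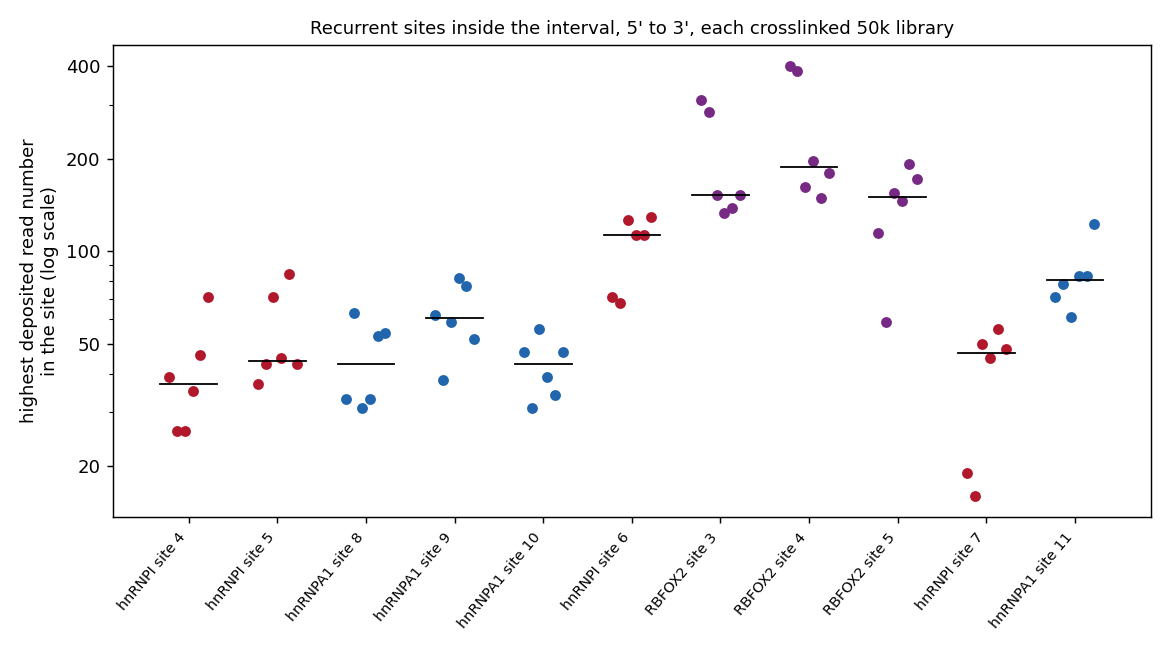
Highest deposited read number (y axis, log scale) in each recurrent site of the interval, ordered 5′ to 3′ from left to right, with 1 point per library of the main set and a bar at the median. Read numbers are unscaled, so points are to be read within a protein. hnRNPI site 6 (median 113) is the strongest of its protein there, hnRNPA1 site 11 (median 80.5) of hnRNPA1, and RBFOX2 site 4 (median 188) of RBFOX2.

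hnRNPc had the most sites, 101, with 15 recurrent and 45 seen in 1 library. None of the 15 was in the interval. Most lay in the long upstream introns, where site 9 (chr15:72507476-72507721) had 29 to 74 reads (median 56.0) in the 5 libraries that listed it, and site 2 (chr15:72519626-72519891) had 7 to 85 (median 45.5) in all 6. Site 3 (chr15:72519425-72519561) had a median of 34, as did site 7 (chr15:72508646-72508753). Sites 9 and 2 also had a peak in 4 of the 4 hnRNPc libraries without crosslinking. Those libraries gave 29, 17, 15 and 27 reads at site 9, and 21, 17, 22 and 9 at site 2. Sites 3 and 7 had a peak in 2 and 1 of them. No hnRNPI or RBFOX2 library of the main set listed a peak at any of these 4 sites. Site 1 (chr15:72520166-72520236), with a median of 22 reads, was listed in 0 of the 4 hnRNPc libraries without crosslinking. Site 13 (chr15:72500931-72501066), with a median of 23, touched segment 6 and had a peak in 15 of the 16 libraries without crosslinking. All 8 hnRNPc libraries with those lower cell numbers in the title and no gel listed sites 2, 3 and 9. Their interval shares ran from 0.0% to 4.60%. Those of the hnRNPc libraries of 10k and 1k cells, made with less RNase, ran from 0.0% to 7.78%. With medium RNase, hnRNPc shares were 6.51% and 9.47%. In all of these the hnRNPc share stayed below every hnRNPA1, hnRNPI and RBFOX2 library of the main set.

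Without crosslinking, a larger share of the PKM peak length lay on the segments than with it. For a comparison, segments were defined from 8 of the 16 libraries and measured in the other libraries. Those with PAGE were scored on segments from those without, and the reverse. Both sets of 8 were without crosslinking and from the same 4 proteins, so this direction was favoured in advance. The test therefore partly asks whether libraries without crosslinking resemble each other, and it is not independent support. With PAGE, 64.4% of covered nucleotides were in segments without crosslinking (range 31.0% to 94.0%, n = 8) against 8.64% with crosslinking (range 0.0% to 21.2%, n = 8). The difference was 55.8 points, with no overlap (exact permutation p = 0.00154, the smallest this design can give, adjusted p = 0.00463). Without PAGE the shares were 55.0% and 19.3%, a difference of 35.7 points (exact permutation p = 0.00154, adjusted p = 0.00463). It had the same direction in 4 of 4 proteins, and the ranges over all proteins overlapped. The share differed by protein. With PAGE it was 94.0% and 83.8% for RBFOX2, 67.9% and 64.1% for hnRNPA1, 65.5% and 65.5% for hnRNPI, and 43.5% and 31.0% for hnRNPc. Without PAGE it was 67.8% and 71.1% for RBFOX2, 66.7% and 61.4% for hnRNPA1, 49.5% and 49.9% for hnRNPI, and 37.3% and 36.4% for hnRNPc. In the hnRNPc libraries most of the covered nucleotides thus lay off the segments even without crosslinking. The accessions of the libraries without crosslinking form a separate run from those of the main set, and a preparation batch, if there was one, cannot be told apart from the absence of crosslinking.

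The libraries without crosslinking also had more PKM peaks for their length. Without PAGE the mean rate was 31.8 ± 18.5 per 100000 (SD, n = 8) against 12.8 ± 6.68 with crosslinking (SD, n = 8), higher in 4 of 4 proteins (exact permutation p = 0.00309, adjusted p = 0.00741). Both libraries were higher than both crosslinked ones in at least 3 proteins, as for 18.1% of 11866 genes. Without PAGE, the rates were 54.9 and 47.4 for RBFOX2, 56.7 and 30.4 for hnRNPI, 15.5 and 17.3 for hnRNPA1, and 19.2 and 12.9 for hnRNPc. The hnRNPA1 and hnRNPc values were thus closest to those with crosslinking. With PAGE the means were 37.7 ± 29.4 (SD, n = 8) and 17.8 ± 17.8 (SD, n = 8). That difference was 19.9 per 100000 (exact permutation p = 0.128, adjusted p = 0.207), positive in 3 proteins and negative in hnRNPc. Here too at least 3 proteins had both libraries higher, as for 11.2% of 11188 genes. Without hnRNPc_50k_lowRNase replicate 1 the difference with PAGE was 25.3 (exact permutation p = 0.0139, unadjusted).

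The libraries without crosslinking still differed by protein in the interval. Those of hnRNPI had 13.2% and 26.7% of their covered nucleotides there with PAGE, and 26.1% and 29.9% without. With PAGE these shares were 66 of 499 nt and 133 of 498 nt, from 9 and 10 PKM peaks. The 12 libraries of the other proteins had at most 3.07%. Peaks in hnRNPI sites 5 and 6 were listed in 3 and 2 of the 4 hnRNPI libraries without crosslinking. At site 6 their read numbers were 6 and 6, against 68 to 129 in the crosslinked libraries of hnRNPI. At site 5 they were 8, 9 and 21, against 37 to 84. Sites 4 and 7 were listed in noUV_noPAGE_hnRNPI replicate 2, with 17 and 18 reads, against 26 to 71 and 16 to 56. The read numbers are unscaled, and the 4 hnRNPI lists without crosslinking held 18690 to 78945 peaks, against 294597 to 353415 with it. These differences were not tested.

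Among the crosslinked libraries, RBFOX2 without PAGE was closest to the libraries without crosslinking in its share on segments. Over all 14 segments the share was 62.5 ± 0.382% without PAGE (SD, n = 2) and 63.1 ± 3.61% with RecJ (SD, n = 2), against 18.9 ± 1.47% with PAGE (SD, n = 2). Each of the 14 segments had a peak in at least 1 of the 4 RBFOX2 libraries without PAGE, those with RecJ included. Segment 13 had a peak in 1 of the 4, segment 3 in 2, and every other segment in all 4. With PAGE, 5 segments had a peak in at least 1 of only 2 RBFOX2 libraries. For hnRNPA1 the share was 17.2 ± 7.40% without PAGE (SD, n = 2) and 22.5 ± 1.06% with RecJ (SD, n = 2). With PAGE it was 5.67 ± 0.218% (SD, n = 2). hnRNPI stayed between 2.89% and 6.20% in all 6 libraries. Whether protein and gel step act together was not tested.

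Replicates of a group differed in how many of their covered PKM nucleotides they shared. In hnRNPI without PAGE, 84.3% of the nucleotides of replicate 1 and 78.0% of those of replicate 2 were covered in both. For RBFOX2 without PAGE the values were 88.1% and 86.5%, and for hnRNPA1 70.1% and 58.7%. For hnRNPc without PAGE they were lower, 46.6% and 44.8%.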

How the data were processed

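Each library has a deposited list of peaks, called separately and named for the caller CLIPper, with no header. The p-value of each peak is the authors' deposited value, and no adjustment is stated. The other deposited text used is the peak name, which holds a gene identifier and, last, a number of at least 4 read here as the number of reads. Per the submitters' processing notes, the build was hg19, and STAR 2.7.3a, UMI-tools 1.0.1 and bcl2fastq were used; the annotation release is not given in the sources used here. PCR duplicates and peak filters shape which peaks are listed. A rate per 100000 listed peaks has no control for depth.

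PKM, the lists and the rules were chosen with earlier results of these data known. Peaks were read with pandas 2.3.3 under Python 3.11.15, and coordinates are 1-based. Segments needed at least 6 of 16 libraries, were joined under 30 nt apart and kept from 20 nt; pieces under 150 nt apart counted as 1 group. For segments from 8 libraries, at least 3 were needed. Exact two-sided permutation tests enumerated 21952 relabellings within protocols or 1296 within proteins. The smallest p they can give is 4.56e-05 for proteins and 0.00154 for crosslinking, since mirrored labellings count together. Benjamini-Hochberg adjustment was over 12 tests, of which those of the interval and of segments were added after seeing the data. Tests were checked on simulated data. The planned tests in a window around annotated exclusive exons were not run, since no exon annotation of hg19 was used here. Background shares are over genes with a mean of at least 2 peaks per library.

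Named sites were, per protein, the 6 recurrent sites with the highest median read number, plus every recurrent hnRNPI or hnRNPA1 site in the interval (planned: in the window). hnRNPI site 3 and hnRNPA1 sites 3, 4, 5, 12 and 13 were named after their values were seen. A list of glycolysis genes was planned but not applied, because 0 identifiers could be matched to symbols. No sequence is printed, because no hg19 genome was used here. Replicate numbers did not pair libraries: over 66 pairs of groups, the differences between replicates correlated from -0.083 to 0.085.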

Additional observations from a re-analysis of the deposited data

Results flagged for a closer look

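In hnRNPc_50k_lowRNase replicate 1 the rate was 61.2 PKM peaks per 100000 listed peaks, from 2 PKM peaks in a list of 3268. Its gap to the next hnRNPc library of the main set was 0.869 of the whole range, above the critical ratio of 0.625 for 6 libraries. There were 12 such groups of values tested, and chance alone puts about 1 in 20 past the ratio.

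The change in rate without crosslinking, with PAGE, ran in opposite directions between proteins. Both RBFOX2 libraries rose above the crosslinked ones and both hnRNPc libraries fell below, a gap of 95.7 per 100000. The gap to hnRNPc was 51.1 for hnRNPI and 33.4 for hnRNPA1. These differences between proteins were not tested, and all of them contain the short hnRNPc list.

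Of the 8 libraries from other gel regions, Background_75-100kDa replicate 1 listed 1 PKM peak (chr15:72514256-72514317), with 6 reads, among 6716 listed peaks.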

How the results depend on the processing

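For the 12 tests, 326 alternatives were computed, and 313 kept the direction and the side of the threshold. All alternatives kept both for 8 of the tests, among them those of the interval and of the segments. With deposited read numbers, scaled to their sum, in place of peaks, the difference of hnRNPc from the others reversed to -76.7 and passed in that direction (exact permutation p = 0.0484, unadjusted). That without crosslinking, with PAGE, reversed to -12.0 (exact permutation p = 0.671); the RBFOX2 difference rose to 186 (exact permutation p = 4.56e-05, the smallest possible). On average hnRNPc libraries of the main set, the shortest list included, covered 2559 nt of PKM at 0.285 reads per nt. RBFOX2 libraries covered 1867 nt at 1.63. Whether these values account for the changes was not tested. With only peaks of p below 1e-05, hnRNPc reversed to -8.37, RBFOX2 passed at 17.5 and recurrent hnRNPc sites fell from 15 to 7. They were 2 when the shortest list was also required. Joined into clusters, hnRNPc passed at 12.9. On the log2 scale hnRNPI passed at -0.79.

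Leaving out each library gave ranges of -8.70 to -5.21 for hnRNPI, 2.36 to 16.7 for hnRNPc, -7.37 to -3.88 for hnRNPA1, 4.33 to 7.75 for RBFOX2 and 14.5 to 25.3 without crosslinking with PAGE. The values -5.21, 2.36, -3.88, 7.75 and 25.3 are those without hnRNPc_50k_lowRNase replicate 1, the library with the fewest listed peaks. Of these -5.21, 7.75 and 25.3 passed. Why results moved was not tested. Relabelling within replicate number (replicate block) changed no call; for the interval share of hnRNPI the difference was 40.7 points (exact permutation p = 0.000488). The planned windows around the exclusive exons were not run. Depth is unknown, so an unlisted site is not shown to be unbound.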

Other observations

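Over the 34 group means, the genes whose rate of peaks followed PKM most closely among 4266 genes were ENSG00000254772 (Spearman rho 0.965) and ENSG00000255508 (rho 0.932). The groups share list length and protocol, and these identifiers were not matched to symbols here.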
